A study of Mus musculus with 6 samples.

Results

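The 34 genes described here encode the general protein-folding machinery of the cytosol and of mitochondria, with the transcription factors that control it. They were taken by symbol: the cytosolic HSP70 genes with their HSP110-type relatives and Bag3 (8 genes), J-domain partners (5), HSP90 with its cochaperones (7), mitochondrial chaperones (4), subunits of the chaperonin TRiC/CCT (8) and the heat shock factors Hsf1 and Hsf2 (2). All 34 were found among the 55335 gene identifiers of the count table, and all 34 passed the filter on low counts that left 19783 genes for testing. The choice of genes used no measured value, although earlier results of these data were known when it was made.

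HSP70 proteins hold and release unfolded segments in cycles driven by ATP, J-domain proteins deliver the segments and start the cycle, and HSP110-type proteins and BAG domain proteins exchange the nucleotide. HSP90 acts on partly folded kinases, receptors and transcription factors, and TRiC/CCT encloses actin, tubulin and other proteins in a ring. Under proteotoxic stress, HSF1 binds heat shock elements, inverted repeats of the unit GAA with spacers of 2 bases, and raises the transcription of many chaperone genes. Activated and dividing T cells are known to carry more of these proteins than resting cells.

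The cells were donor CD8+ T cells of P14 TCR transgenic mice, which all carry a receptor for the GP33-41 epitope, from the strain C57BL/6 and labelled as 10-week-old. They were transferred on day 11 after C57BL/6 mice had been implanted with B16-GP33-41 cells, a melanoma line that displays this epitope. P14 TIL were the donor cells sorted from the tumors (3 libraries), and P14 Sp were the donor cells sorted from the spleens of the same tumor-bearing mice (3 libraries). Tumor leukocytes alone went through a Percoll step before the sort. The sources used here give neither the time from transfer to sorting nor the number of mice behind a library. The spread that enters the p-values is therefore that between these libraries and may be technical. All cells had been transferred and no library came from tumor-free mice.

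Total counts were 36198681 to 38263483 in P14 TIL and 35095261 to 37650999 in P14 Sp. The biological coefficient of variation over all genes was 10.5% in P14 TIL and 3.21% in P14 Sp. The CD8 T cell markers were abundant in every library, with a sum over 8 genes of 4030 to 4186 CPM (counts scaled to a library total of 1000000) in P14 TIL and 4687 to 4742 CPM in P14 Sp. B cell markers summed to 7.82 to 9.57 CPM in P14 TIL, with Cr2 at 0, and to 455 to 468 CPM in P14 Sp, and all 8 were lower in P14 TIL. Macrophage markers summed to 30.2 to 30.8 CPM in P14 TIL and to 215 to 225 CPM in P14 Sp, and all 8 were lower in P14 TIL. Erythroid markers summed to 247 to 274 CPM against 207 to 210 CPM, melanoma markers to 9.65 to 10.9 CPM against 19.4 to 21.4 CPM, with Tyrp1 at 0 in P14 Sp, and NK cell markers to 16.3 to 18.9 CPM against 18.7 to 21.01 CPM, each with P14 TIL given first. The melanoma markers went in both directions. Of 7, 3 were tested: Dct was higher in P14 TIL (log2 5.23), Pmel was lower (log2 -1.18) and Mitf was not called. Without the low-count filter 4 of the 7 were higher and 1 lower, as were 7398 and 7972 of 35231 genes. The part of all these other cells in the chaperone values was not tested. Codes in the sample descriptions share an ending within each tissue and differ between tissues; such a batch, if there is one, cannot be told apart from tissue.

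Chaperone transcripts were higher in P14 cells from the tumor than in those from the spleen, for 31 of the 34 genes, and 0 were lower (quasi-likelihood test of edgeR, p below 0.05 after Benjamini-Hochberg adjustment over all genes tested). The exceptions were Dnajb4, Dnajb6 and Chordc1, which did not pass. The background is wide, since 34.8% of all genes tested were called higher and 35.9% lower. The median log2 fold change of the 34 genes was 1.02, against -0.02 over all genes tested. A change beyond 1.5-fold was called for 23 of them by a test against that fold (glmTreat), with a background of 14.9% of genes higher. A rise of at least 2-fold was seen in 18 of them, against 9.96% of all genes tested. In 30 of the 34 genes every P14 TIL library lay above every P14 Sp library, a pattern that 35.1% of all genes tested showed. Summed over the 34 genes, P14 TIL libraries held 11140, 11184 and 11930 CPM, or 1.14% of counts, and P14 Sp libraries held 5104, 5115 and 5121 CPM, or 0.511%. In bulk RNA, fewer cells with a transcript and less of it per cell cannot be told apart.

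**Figure D1:**
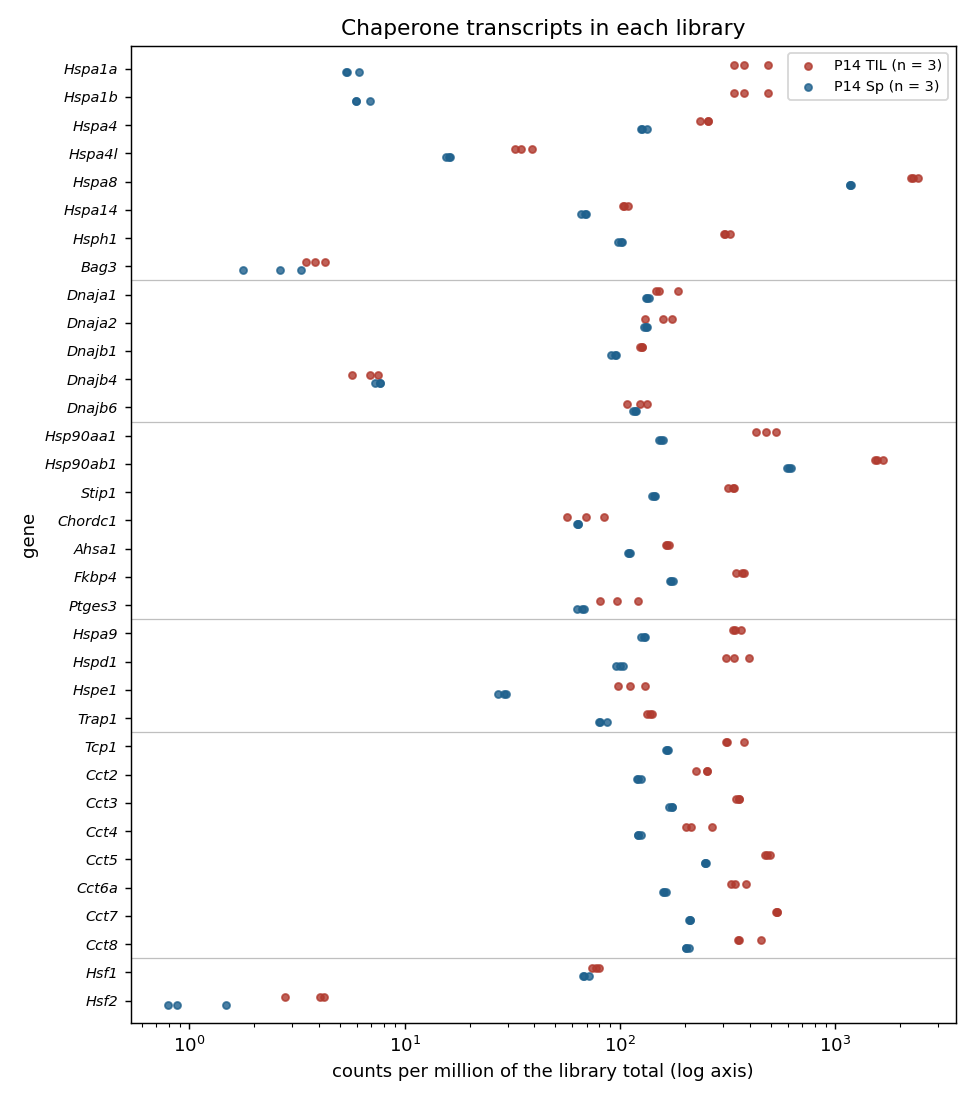
CPM (horizontal log axis) of each of the 34 genes (vertical axis), with 1 point per library for P14 TIL and P14 Sp (3 libraries each). The P14 TIL points of Hspa1a and Hspa1b lie at 338 to 488 CPM and the P14 Sp points of both at 5.31 to 6.92 CPM, while the tissues lie much closer together for the other genes.

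The stress-inducible HSP70 genes Hspa1a and Hspa1b stood apart by size. Hspa1a had 488, 376 and 338 CPM in P14 TIL libraries 1 to 3, against 5.39, 5.31 and 6.13 CPM in P14 Sp libraries 1 to 3. Hspa1b had 485, 376 and 339 CPM in P14 TIL, against 5.93, 5.95 and 6.92 CPM in P14 Sp. The tissues were far from overlapping, and for both genes P14 TIL library 1 was the highest and library 3 the lowest. Hspa1a rose 73.1-fold (log2 fold change 6.19, SE 0.16, adjusted p = 6.8e-11) and Hspa1b 65.3-fold (6.03, SE 0.15, adjusted p = 7.4e-11). Without these 2 genes the highest log2 fold change among the rest was 2.01 and their median was 1.0.

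Hspa1a (ENSMUSG00000091971.3) lies on chromosome 17 at 34969190 to 34972156 of mm10, minus strand, and Hspa1b (ENSMUSG00000090877.3) at 34956436 to 34959238 on the same strand. They are near-identical copies: 58.8% of the 50-base words of the Hspa1a transcript also occur in Hspa1b, and 62.3% of those of Hspa1b occur in Hspa1a. Reads of 50 bases from these stretches cannot be assigned to either copy, so the separate values are uncertain, and the sum counts such reads more than once if each row received them. Summed, they held 974, 751 and 678 CPM in P14 TIL and 11.3, 11.3 and 13.1 CPM in P14 Sp, a ratio of 67.4. Hspa1l, the neighbouring HSP70 gene, had a log2 fold change of 5.83 and shares 7.95% of the Hspa1a words. Gm20481, a gene model on the strand opposite Hspa1a, had 6.48, and because the sources used here name no strand setting, its reads and those of Hspa1a cannot be told apart.

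The copies also share the upstream region, which is shown because the letters of the heat shock element can be looked for there. The windows are from RefSeq on GRCm38.p6 and run from 250 bases before to 50 bases after the start of transcription, which counts as position 0. They are chr17:34972107-34972406 for Hspa1a and chr17:34959189-34959488 for Hspa1b, both read on the minus strand. Capitals mark matches to a heat shock element of 2 units.
Hspa1a: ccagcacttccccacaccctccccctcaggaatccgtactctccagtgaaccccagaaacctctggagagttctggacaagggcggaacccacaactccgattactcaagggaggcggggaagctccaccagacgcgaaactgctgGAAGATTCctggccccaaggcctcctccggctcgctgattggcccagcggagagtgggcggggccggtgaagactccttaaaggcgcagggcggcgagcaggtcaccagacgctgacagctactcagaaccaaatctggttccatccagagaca
Hspa1b: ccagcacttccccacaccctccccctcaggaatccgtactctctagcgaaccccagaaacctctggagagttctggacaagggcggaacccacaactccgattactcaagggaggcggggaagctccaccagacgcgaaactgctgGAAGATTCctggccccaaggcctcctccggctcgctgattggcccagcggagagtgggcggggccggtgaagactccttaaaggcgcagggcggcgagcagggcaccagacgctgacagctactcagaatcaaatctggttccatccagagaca
Of 300 positions, 296 are identical, and in each window the match starts at position -104.

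The other genes of the HSP70 system rose by less, and all 8 of the class passed the test. Hspa8, the constitutive cytosolic HSP70, had 2252, 2279 and 2417 CPM in P14 TIL, against 1170, 1163 and 1179 CPM in P14 Sp. Hsph1, an HSP110-type exchange factor, had 305, 305 and 323 CPM in P14 TIL, against 97.6, 102 and 101 CPM in P14 Sp. Neither gene overlapped between tissues, and the libraries of each tissue lay close together. Hspa8 was 2.02-fold higher (log2 1.01, SE 0.05, adjusted p = 1.0e-08) and Hsph1 3.17-fold higher (log2 1.66, SE 0.05, adjusted p = 3.8e-10). The HSP110-type genes Hspa4 (1.98-fold) and Hspa4l (2.26-fold) and the ribosome-associated HSP70 Hspa14 (1.58-fold) were higher as well, each without overlap. Bag3, an exchange factor that is itself a known HSF1 target, had only 127, 146 and 154 counts in P14 TIL, which is 3.48, 3.82 and 4.25 CPM, against 96, 67 and 116 counts, or 2.63, 1.78 and 3.31 CPM, in P14 Sp. The lowest P14 TIL library was just above the highest P14 Sp library, and the rise of 1.53-fold (log2 0.62, SE 0.20, adjusted p = 0.015) was lost without P14 Sp library 2 (log2 0.41, adjusted p = 0.060).

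The share of the inducible copies within the cytosolic HSP70 counts was higher in every P14 TIL library. Hspa1a and Hspa1b together made up 29.2, 24.0 and 21.2% of the counts of Hspa1a, Hspa1b, Hspa8 and Hspa14 in P14 TIL, against 0.905, 0.908 and 1.03% in P14 Sp. The tissues did not overlap, and the two-sided exact permutation test gave p = 0.1, the smallest that 3 against 3 libraries allow. Per kilobase of annotated exon the shares were 32.9 ± 4.84% in P14 TIL and 1.41 ± 0.109% in P14 Sp (SD, n = 3 each). Since both rows may hold the same reads, these shares may be too high. With Hspa1a alone as 1 copy, an alternative added after seeing the data, its share of the Hspa1a, Hspa8 and Hspa14 counts was 17.2, 13.6 and 11.8% in P14 TIL and 0.433, 0.430 and 0.489% in P14 Sp.

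J-domain genes, the partners that hand substrates to HSP70, showed small differences: 3 of 5 were higher, and the median log2 fold change was 0.26. Dnajb1, the inducible partner known to act with HSP70 in refolding and a textbook HSF1 target, had 126, 123 and 126 CPM in P14 TIL, against 95.0, 95.4 and 90.3 CPM in P14 Sp. These values did not overlap, and the difference was 1.36-fold (log2 0.45, SE 0.05, adjusted p = 1.7e-05). The ratio of Hspa1a to Dnajb1 counts was 3.88, 3.04 and 2.68 in P14 TIL and 0.0567, 0.0557 and 0.0678 in P14 Sp. This ratio follows from the fold changes of both genes and is no separate result. Dnaja1, a farnesylated partner of Hspa8, was 1.23-fold higher (adjusted p = 0.0048). Gm15542, a row that shares sequence with Dnaja1, held 93.9% of its CPM in P14 TIL and 88.2% in P14 Sp. Smu1, which overlaps Dnaja1 on the opposite strand, had a log2 fold change of 0.22. The part of such reads in the Dnaja1 difference was not tested. Dnaja2, a relative of Dnaja1, had 131, 158 and 174 CPM in P14 TIL, against 133, 130 and 132 CPM in P14 Sp. There P14 TIL library 1 fell within the spleen range, and the call (log2 0.26, adjusted p = 0.014) was lost without P14 Sp library 2 (adjusted p = 0.055). Dnajb6, which suppresses aggregation of polyglutamine proteins, had 107, 123 and 133 CPM in P14 TIL, against 117, 119 and 115 CPM in P14 Sp. Its tissues overlapped and it did not pass (log2 0.08, SE 0.07, adjusted p = 0.31), nor did Dnajb4, at 5.70 to 7.51 CPM in P14 TIL and 7.30 to 7.71 CPM in P14 Sp (log2 -0.14, adjusted p = 0.27). Dnajb6 was called higher without P14 TIL library 1 (log2 0.17, adjusted p = 0.018) and without pseudogene rows (adjusted p = 0.023).

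HSP90 and its cochaperones were higher in 6 of 7 genes, with a median log2 fold change of 1.10. Hsp90ab1, the constitutive cytosolic HSP90, had 1534, 1565 and 1659 CPM in P14 TIL, against 593, 610 and 620 CPM in P14 Sp. Hsp90aa1, the more inducible copy, had 427, 476 and 532 CPM in P14 TIL, against 156, 152 and 159 CPM in P14 Sp. Neither overlapped, and in the tumor both were lowest in library 1 and highest in library 3. Hsp90aa1 was 3.14-fold higher (log2 1.65, SE 0.07, adjusted p = 3.6e-09) and Hsp90ab1 2.66-fold higher (log2 1.41, SE 0.05, adjusted p = 1.0e-09). Hsp90aa1 made up 23.1 ± 1.27% of the counts of both copies in P14 TIL and 20.4 ± 0.442% in P14 Sp (SD, n = 3 each), a difference of 2.76 percentage points (exact permutation p = 0.1).

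Among the cochaperones, Stip1, the adaptor that joins HSP70 to HSP90, was 2.34-fold higher, at 329 ± 11.3 CPM in P14 TIL and 143 ± 2.50 CPM in P14 Sp (SD, n = 3 each). Fkbp4, the immunophilin of steroid receptor complexes, was 2.14-fold higher, and Ahsa1, the activator of the HSP90 ATPase, 1.54-fold higher. Ptges3, the cochaperone p23 that holds the closed form of HSP90, had 80.2, 96.2 and 121 CPM in P14 TIL, against 67.8, 66.8 and 62.9 CPM in P14 Sp. Its P14 TIL libraries were spread widely but all lay above the spleen (log2 0.62, SE 0.11, adjusted p = 0.00042). Chordc1, a CHORD-domain partner of HSP90, had 56.7, 69.3 and 84.2 CPM in P14 TIL, against 63.8, 63.4 and 63.6 CPM in P14 Sp. P14 TIL library 1 was below and libraries 2 and 3 above all spleen libraries, and the gene did not pass (log2 0.17, SE 0.11, adjusted p = 0.18), except without P14 TIL library 1 (log2 0.30, adjusted p = 0.0031), without the low-count filter (adjusted p = 0.034) and without the rows of pseudogenes (adjusted p = 0.037).

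**Figure D2:**
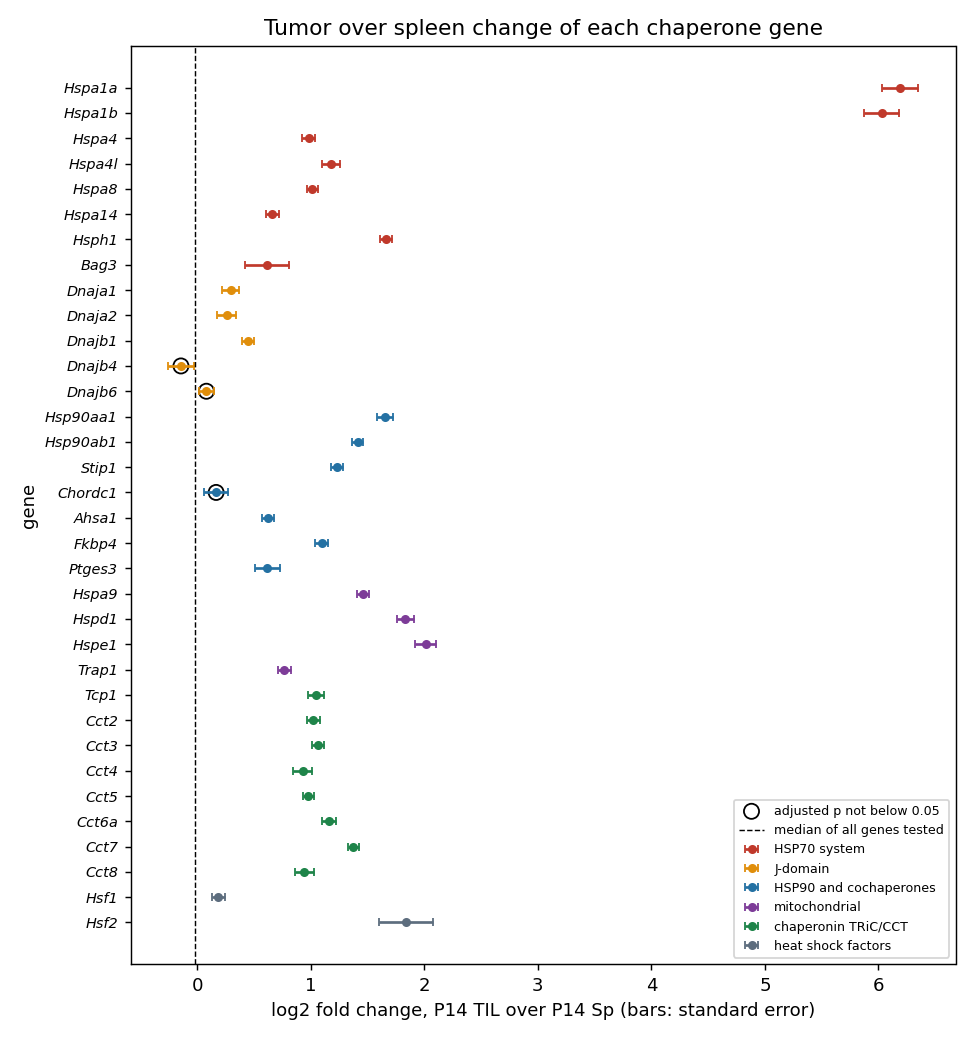
Log2 fold change of P14 TIL over P14 Sp for each of the 34 genes, colored by class, with bars for the standard error, open rings for the 3 genes that did not pass and a dashed line at the median of all genes tested (-0.02). Hspa1a (6.19) and Hspa1b (6.03) lie far to the right of Hspe1 (2.01), the next gene.

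All 4 mitochondrial chaperone genes were higher, with a median log2 fold change of 1.65. Hspd1 encodes HSP60, the ring of the mitochondrial chaperonin, and Hspe1 encodes HSP10, its lid. Hspd1 had 312, 339 and 395 CPM in P14 TIL, against 96.2, 103 and 99.7 CPM in P14 Sp. Hspe1 had 97.4, 111 and 131 CPM in P14 TIL, against 29.4, 27.2 and 29.0 CPM in P14 Sp. For both, P14 TIL library 1 was the lowest of the tumor and was still above every spleen library. Hspe1 was 4.03-fold higher (log2 2.01, SE 0.09, adjusted p = 6.6e-09) and Hspd1 3.56-fold higher (log2 1.83, SE 0.08, adjusted p = 3.2e-09). The ratio of Hspd1 to Hspe1 per kilobase was 1.73 ± 0.0516 in P14 TIL and 1.95 ± 0.153 in P14 Sp (SD, n = 3 each, exact permutation p = 0.1).

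Hspa9, the mitochondrial HSP70 mortalin that also pulls proteins through the inner membrane, had 340, 334 and 363 CPM in P14 TIL, against 130, 129 and 125 CPM in P14 Sp. It did not overlap and was 2.76-fold higher (log2 1.46, SE 0.05, adjusted p = 1.0e-09). Trap1, the mitochondrial HSP90, had 137, 133 and 141 CPM in P14 TIL, against 80.3, 86.6 and 79.8 CPM in P14 Sp. It did not overlap either, and its difference was the smallest of the 4, at 1.70-fold (log2 0.77, SE 0.06, adjusted p = 3.6e-07).

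Hspd1 and Hspe1 lie head to head on chromosome 1, Hspd1 at 55077835 to 55088243 on the minus strand and Hspe1 at 55088132 to 55091307 on the plus strand of mm10, so their annotated 5′ ends overlap and their counts there depend on the strand setting. The stretch upstream of Hspe1 is shown as its window, chr1:55087898-55088197, plus strand, from RefSeq on GRCm38.p6. Capitals mark heat shock element units that match the motif of 3 units.
Hspe1: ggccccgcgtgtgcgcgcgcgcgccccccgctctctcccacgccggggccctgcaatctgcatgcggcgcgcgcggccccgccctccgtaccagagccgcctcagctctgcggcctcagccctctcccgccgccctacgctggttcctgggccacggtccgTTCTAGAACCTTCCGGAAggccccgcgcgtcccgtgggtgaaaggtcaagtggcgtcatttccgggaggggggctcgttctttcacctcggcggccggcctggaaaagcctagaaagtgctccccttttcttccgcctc
The match runs from position -89 to -72 of Hspe1, at chr1:55088059-55088076. The same bases, read on the other strand, lie at -144 to -127 in 1 of the RefSeq windows of Hspd1. The other Hspd1 window, chr1:55088194-55088493, belongs to the annotated 5′ end given above and holds no match. Counted from that end, the matched bases lie inside Hspd1 and not upstream of it.

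Across the 28 genes of the set with a RefSeq window, the motif of 3 units (GAA, any 2 bases, TTC, any 2 bases and GAA, or the reverse complement) was found in 5, or 17.9%, where 0.662% of the 27025 genes in the promoter table had it. The motif of 2 units (GAA and TTC in either order with any 2 bases between), which is also part of each match of 3 units, was found in 14 of the 28, or 50.0%, against 16.97% of all genes in the table. These genes are not all independent: Hspd1 and Hspe1 share the same site, and the near-identical windows of Hspa1a and Hspa1b each count among the 14. Besides Hspd1 and Hspe1, the genes with 3 units were Hsph1, Dnajb6 and Chordc1. Their matches, in capitals throughout, were as follows.
Hsph1: TTCTGGAAAGTTC
Dnajb6: GAATCTTCCGGAA
Chordc1: GAACGTTCGGGAAAATTCCTGAA
The Hsph1 match, at chr5:149636288-149636300 (minus strand), lies after the start of transcription, at 36 to 48 or 15 to 27 depending on the window. That of Dnajb6, at chr5:29735852-29735864, lies at -46 to -34 or -127 to -115. That of Chordc1, at chr9:18292263-18292285, spans positions -4 to 18. The 5 genes thus include 3 that rose by 3.17-fold to 4.03-fold and 2 that did not pass, and the windows of Hspa1a and Hspa1b hold no match of 3 units. A match of letters shows no binding, and other lengths or spacings were not searched.

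All 8 TRiC/CCT subunits, which assemble into a ring of fixed composition, rose within a narrow range of 1.90-fold to 2.59-fold. Cct7 had 534, 531 and 536 CPM in P14 TIL, against 208, 211 and 211 CPM in P14 Sp. Its libraries agreed closely within each tissue, and it had the largest difference of the ring (log2 1.37, SE 0.05, adjusted p = 9.3e-10). Cct4 had 214, 203 and 267 CPM in P14 TIL, against 121, 121 and 125 CPM in P14 Sp. Cct8 had 355, 353 and 452 CPM in P14 TIL, against 209, 203 and 203 CPM in P14 Sp. Neither overlapped, but in both P14 TIL library 3 was well above libraries 1 and 2, and they had the smallest differences of the ring (Cct4 log2 0.93, SE 0.09, adjusted p = 1.9e-06; Cct8 log2 0.94, SE 0.08, adjusted p = 1.2e-06). Tcp1 (2.06-fold), Cct2 (2.03-fold), Cct3 (2.09-fold), Cct5 (1.97-fold) and Cct6a (2.24-fold) lay between.

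Cct7 made up 18.4 ± 1.05% of the counts of the 8 subunits in P14 TIL and 14.95 ± 0.205% in P14 Sp (SD, n = 3 each). Per kilobase these shares were 10.6 ± 0.655% in P14 TIL and 8.42 ± 0.123% in P14 Sp. Cct7 had the largest difference of the ring in these same data, so its higher share follows from that and is no separate result. Levels per transcript length, in TPM (counts per kilobase of exon, scaled to the same total in each library), spread from 76.8 (Cct4) to 247 (Cct5) across the subunits in P14 TIL, with a coefficient of variation of 43.4%. In P14 Sp they spread from 42.5 (Cct3) to 142 (Cct5), with a coefficient of variation of 48.0%. With the length of the longest transcript the spread was 117 (Cct4) to 331 (Cct5) TPM in P14 TIL and 67.4 (Tcp1) to 188 (Cct5) TPM in P14 Sp, so the lowest subunit in P14 Sp depends on the length used.

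**Figure D3:**
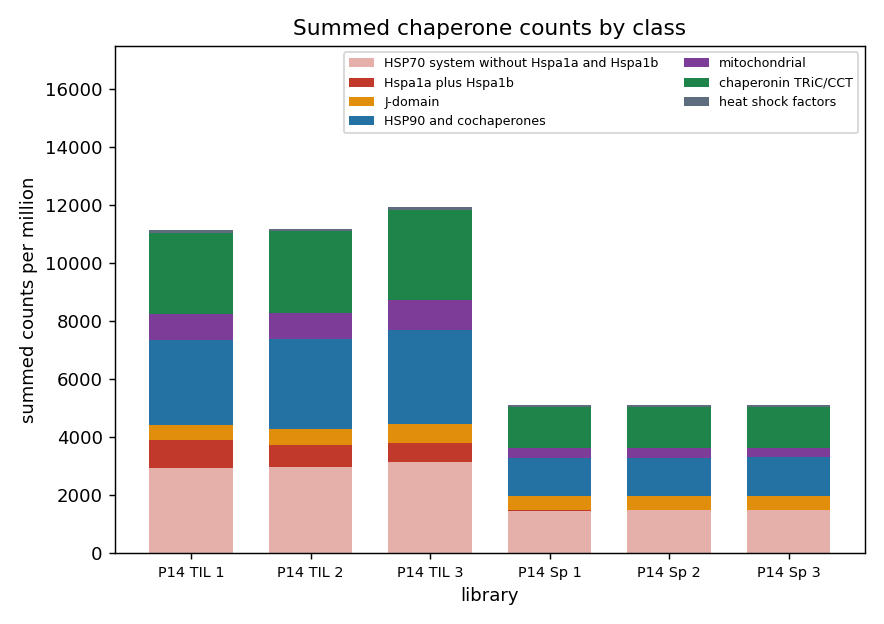
Summed CPM (vertical axis, from 0) in each of the 6 libraries (horizontal axis), stacked by class with Hspa1a and Hspa1b apart from the other genes of the HSP70 system. The bars of P14 TIL reach 11140 to 11930 CPM and those of P14 Sp 5104 to 5121 CPM.

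By class, the ratio of the mean sums of P14 TIL to P14 Sp was 2.79 for mitochondrial chaperones, 2.55 for the HSP70 system, 2.34 for HSP90 with its cochaperones, 2.07 for TRiC/CCT, 1.18 for the J-domain genes and 1.15 for the heat shock factors. Over all 34 genes it was 2.23, and without Hspa1a and Hspa1b it was 2.08. These sums are descriptions and carry no test.

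The heat shock factors differed from each other in level. Hsf1, the factor that mounts the heat shock response, had 79.6, 73.7 and 77.3 CPM in P14 TIL, against 67.9, 67.4 and 71.5 CPM in P14 Sp. The tissues did not overlap, yet the difference was 1.14-fold (log2 0.19, SE 0.06, adjusted p = 0.016), and the call was lost without P14 Sp library 1 (adjusted p = 0.071), without P14 Sp library 2 (adjusted p = 0.069) and with upper quartile scaling (adjusted p = 0.068). Hsf2, a partner of HSF1 with roles in development, had 101, 162 and 146 counts in P14 TIL, or 2.77, 4.23 and 4.03 CPM, against 32, 30 and 52 counts, or 0.875, 0.797 and 1.48 CPM, in P14 Sp. All P14 TIL libraries lay above all P14 Sp libraries, and the difference was 3.58-fold (log2 1.84, SE 0.24, adjusted p = 3.3e-05). RNA levels of HSF1 do not report its activity, which is known to be set by its release from chaperones and by its modification.

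Per transcript length, Hspa8 (762 ± 21.2 TPM in P14 TIL and 428 ± 5.15 TPM in P14 Sp) and Hsp90ab1 (748 ± 23.3 TPM in P14 TIL and 319 ± 8.32 TPM in P14 Sp) had the highest levels of the 34 genes in both tissues, followed by Cct5. By the union of exons, the P14 TIL levels of Hspa8 and Hsp90ab1 lay within their spread of each other, and their ratio per kilobase was 1.02 ± 0.00489 in P14 TIL and 1.34 ± 0.0283 in P14 Sp (SD, n = 3 each, exact permutation p = 0.1). Hspa1b ranked 5th of the 34 in P14 TIL, at 202 TPM, and 29th in P14 Sp, at 3.51 TPM. Hspa1a ranked 6th in P14 TIL, at 191 TPM, and 30th in P14 Sp, at 2.97 TPM. With the length of the longest transcript in place of all annotated exon, Hspa8, Hsp90ab1 and Cct5 kept ranks 1 to 3 in both tissues, while Hspa1b ranked 9th in P14 TIL and 29th in P14 Sp, and Hspa1a 12th in P14 TIL and 30th in P14 Sp. Hspa8 then stood above Hsp90ab1 beyond the spread in P14 TIL too, at 932 ± 25.9 TPM and 800 ± 24.8 TPM (SD, n = 3). Hsf2 was the lowest, at 0.542 TPM in P14 TIL and 0.171 TPM in P14 Sp. Hsf1 was at 15.3 TPM in both tissues and its libraries overlapped, so its small rise in CPM depends on the scale. Dnaja2 was at 73.4 TPM in P14 TIL and 69.5 TPM in P14 Sp. Dnajb6 was at 28.3 TPM in P14 TIL and 30.3 TPM in P14 Sp.

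**Figure D4:**
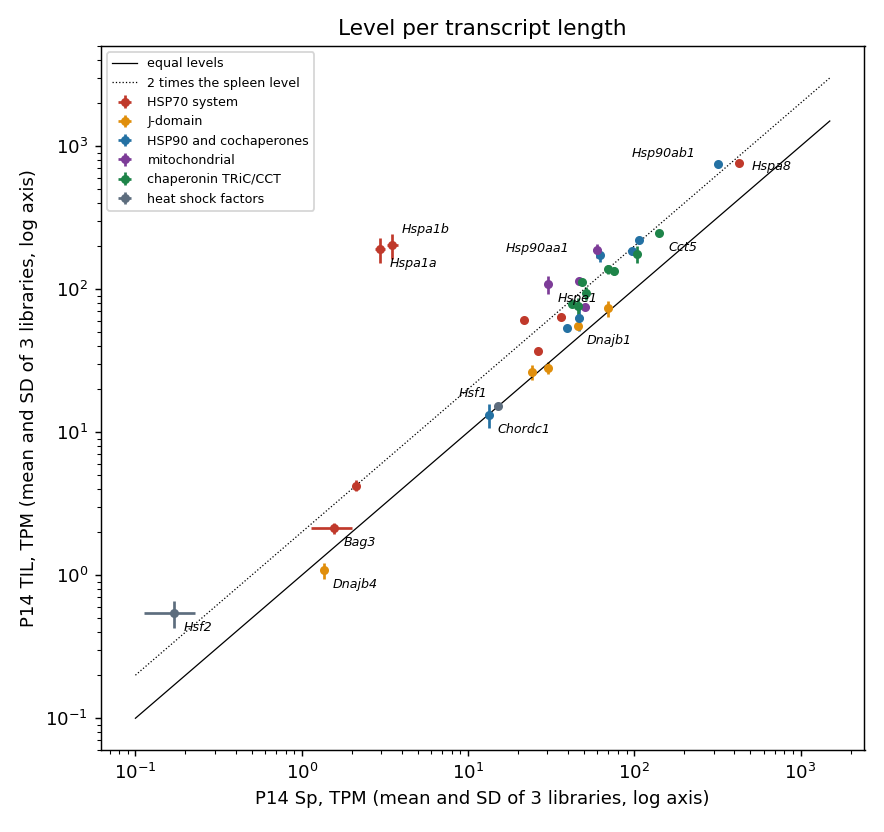
Level per transcript length in P14 TIL (vertical log axis, TPM) against P14 Sp (horizontal log axis, TPM) for each of the 34 genes, with mean and SD of 3 libraries, a solid line at equal levels and a dotted line at 2 times the spleen level. Most genes lie between or near the lines, and Hspa1a (191 TPM in P14 TIL and 2.97 TPM in P14 Sp) and Hspa1b (202 TPM in P14 TIL and 3.51 TPM in P14 Sp) lie far above them.

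The P14 TIL libraries differed more among themselves than the P14 Sp libraries. The median coefficient of variation of the 34 genes was 9.10% in P14 TIL and 2.21% in P14 Sp, and it was larger in P14 TIL for 27 genes. P14 TIL library 3 was the highest of the tumor for 28 of the 34 genes, as it was for 41.3% of all genes tested. It exceeded library 1 for 30 of the 34, where 53.5% of all genes tested did so. The widest ratios of library 3 to library 1 were in Ptges3 (1.51), Chordc1 (1.48) and Hsf2 (1.46). Hspa1a (0.693) and Hspa1b (0.699) ran the other way, and with Hsf1 they were the genes that were highest in P14 TIL library 1. Replicates have no order, and what set these libraries apart was not tested.

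**Figure D5:**
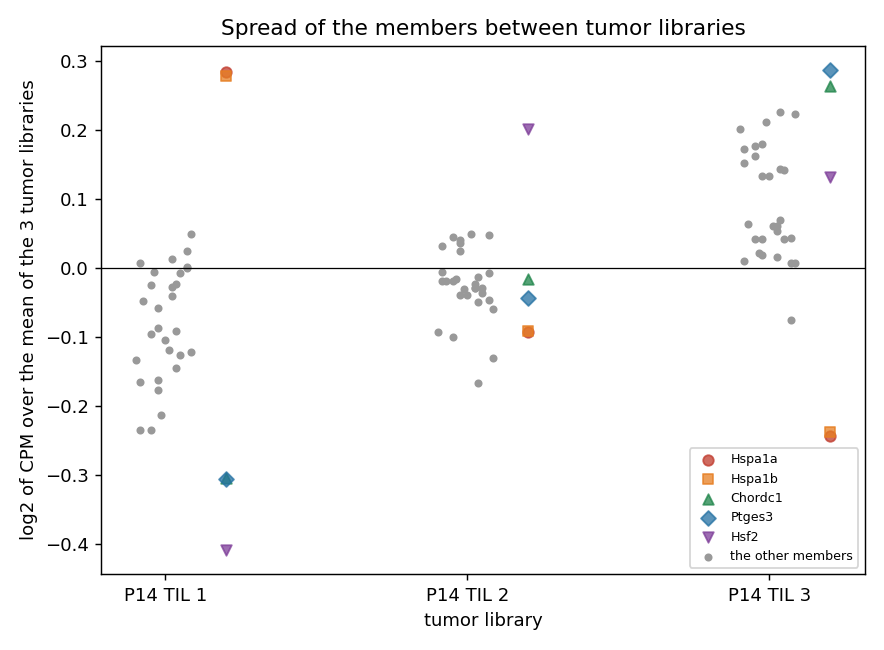
Log2 of the CPM in each P14 TIL library over the mean of the 3 P14 TIL libraries (vertical axis) for the 34 genes, with named genes in color and the rest in grey. Hspa1a and Hspa1b fall below their mean in library 3, where 28 of the genes are at their highest, as are 41.3% of all genes tested.

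Genes that tissue handling is known to induce went in both directions, as did all genes tested (34.8% higher and 35.9% lower). Of 16 immediate early genes, 7 were higher, among them Egr1 (log2 2.0) and Atf3 (log2 4.16). Lower were 5, among them Socs3 (log2 -1.64) and Zfp36 (log2 -0.83). The sum of all 16 was 2105, 1974 and 1906 CPM in P14 TIL and 1992, 2068 and 1939 CPM in P14 Sp, so the tissues overlapped. Such a sum is set mostly by its most abundant genes and does not show the changes of single genes. Within the tumor this sum was highest in library 1 and lowest in library 3, as were Hspa1a and Hspa1b. The part of handling in the Hspa1a and Hspa1b values was not tested.

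Other genes of the chaperone network, from lists set apart from the 34, moved less. Of 84 tested, 42 were higher and 12 lower, with a median log2 fold change of 0.22, against backgrounds of 34.8% higher and 35.9% lower. The split depended on the setting: without pseudogene rows 54 were higher and 7 lower, and with upper quartile scaling 41 were higher and 16 lower. Among further HSP70 partners 10 of 11 tested were higher and 0 lower, led by Hspa1l, whose reads are shared with Hspa1a and Hspa1b, and by the exchange factor Bag2 (log2 1.85, adjusted p = 1.8e-08). Of 14 further cytosolic J-domain genes 7 were higher, including the ribosome biogenesis factor Dnajc21 (log2 0.66) and the ribosome-associated Dnajc2 (log2 0.64), and 3 were lower, including Dnajc7 (log2 -0.62), which binds HSP70 and HSP90, and Dnajc6 (log2 -1.14), the auxilin of clathrin uncoating. Of 18 further HSP90 cochaperones 7 were higher, including Nudc (log2 1.07) and Rpap3 (log2 1.13), and 2 were lower, Cdc37l1 (log2 -0.50) and Fkbp8 (log2 -0.15, adjusted p = 0.048). The Fkbp8 call was lost in 9 of 16 alternative analyses.

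In mitochondria 11 of 16 further quality control genes were higher and 0 lower, among them the proteases Lonp1 (log2 1.22) and Afg3l2 (log2 0.77). For each list in this paragraph the backgrounds are again 34.8% higher and 35.9% lower. Of 15 tested prefoldin and TRiC/CCT partner genes 5 were higher, including the prefoldin subunits Pfdn2 (log2 0.71) and Pfdn1 (log2 0.52), and 3 were lower, including the tubulin cofactor Tbcc (log2 -0.57) and Txndc9 (log2 -0.30). Without pseudogene rows 9 of these were higher and 1 lower, and the Txndc9 call was lost (adjusted p = 0.13). In comparison, chaperones of the endoplasmic reticulum, which answer to other stress sensors, were higher for 11 of 14 genes with a median log2 fold change of 0.50. All rises there were below 2-fold, among them Pdia6 at log2 0.92, the largest, and the HSP70 relative Hspa5 at log2 0.79. Lower were Dnajc3 (log2 -0.58) and Dnajb9 (log2 -1.07).

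Small heat shock proteins, which hold unfolded proteins without ATP, were mostly near 0, and only 3 of 8 passed the filter on low counts. Hspb1, which encodes HSP27, had 330, 288 and 276 counts in P14 TIL, or 9.05, 7.53 and 7.62 CPM, against 2, 10 and 1 counts, or 0.0547, 0.266 and 0.0285 CPM, in P14 Sp. The tissues did not overlap, and most spleen counts were in library 2. Hspb1 was 67.4-fold higher (log2 6.07, SE 0.32, adjusted p = 1.9e-08), close to the size of Hspa1a but at a level that rested on few spleen counts: without P14 Sp library 2 the fold was 182, and without P14 Sp library 3 it was 50.0.

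Other genes linked to HSF1, as relatives, regulators or targets, were called in both directions, as were all genes tested (34.8% higher and 35.9% lower). Of 7 tested, 1 was higher, Hikeshi, the nuclear importer of HSP70 (log2 0.45), and 4 were lower, among them Ier5 (log2 -0.97), an activator of HSF1, Hsf4 (log2 -0.81) and Hsbp1 (log2 -0.18). The Hsbp1 call was lost in 7 of 16 alternative analyses. Zfand2a (log2 -0.01) and Ubb (log2 -0.01) did not pass.

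Several of these genes have processed pseudogenes, and the deposited table counts them as rows of their own. The row of Gm15459 held 2517 CPM in P14 TIL and 1266 CPM in P14 Sp, which is 109% and 108% of the Hspa8 row. Gm12346 held 78.9% of the Hsp90aa1 counts in P14 TIL and 77.3% in P14 Sp, and Hspd1-ps3 held 71.4% and 72.6% of those of Hspd1. These rows followed the tissue difference of their parent genes, with a log2 fold change of 1.02 for Gm15459 and 1.68 for Gm12346. Of the 50-base words of the parent transcripts, 39.4% for Hspa8, 47.5% for Hsp90aa1 and 42.1% for Hspd1 also occur in other transcripts, while 8 of the 34 genes share none. The sources used here do not say how reads with several matches were counted. Pseudogene rows took 19.5 to 20% of all counts in P14 TIL and 14.3 to 14.95% in P14 Sp, and without them, an alternative added after seeing the data, 33 of the 34 genes were higher.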

How the data were processed

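The authors deposited whole-number counts per gene for 6 libraries, 3 of P14 TIL and 3 of P14 Sp, with no normalization. Per the labels' protocols, cDNA was made with a kit for low input, the library kit kept strand, and libraries were pooled 6 to a lane and read for 50 bases from 1 end. Per the submitters' processing notes, the tools were STAR 2.3, featureCounts and bcl2fastq 2.20.0.422, with the build mm10. No source used here gives the annotation, the strand setting or how reads matching several places were counted.

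Symbols came from GENCODE M21, which matched 55154 of 55335 identifiers, 54587 of them with their version number. Genes were tested with edgeR 4.0.16 under R 4.3.3, by the quasi-likelihood F-test with TMM factors and tissue in the model. Genes with low counts were removed by filterByExpr (minimum count 10, minimum total 15), which left 19783, and Benjamini-Hochberg adjusted p-values over these were called below 0.05. The procedure was run on simulated counts that had the same spread in both tissues. The spread here was unequal (10.5% in P14 TIL and 3.21% in P14 Sp), so that run does not show how the test performs on these data. Fold changes are P14 TIL over P14 Sp, and SE is the absolute log2 fold change over the square root of F. CPM is the count over the library total, and TPM uses the union of GENCODE exons. Shares were compared by two-sided exact permutation (SciPy 1.17.1). The Cct7 share and the ratios between genes were not among the planned shares. Transcript words of 50 bases and promoter motifs were counted on GENCODE M21 transcripts and RefSeq windows, which 28 of the 34 genes had. A marker listed at 0 had no counts, but its expected count in a library may still have been up to 3. That limit covers counting error only, because PCR copies were not told apart by molecular identifiers.

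The genes, the lists and most alternatives were chosen with earlier results of these data known. All 34 genes are named; of other lists, counts are given with the 2 genes of smallest p in each direction, and counts of 5 or fewer may be spelled out. A gene that this rule picks is not reported here. Alternatives covered scaling, filters, DESeq2 1.42.0, limma-voom (limma 3.58.1), a null of 1.5-fold, each library left out, a replicate block, Hspa1a and Hspa1b summed, and pseudogene rows left out. Every pair of libraries within a tissue differed by more than counting noise (chi-square per degree of freedom 9.06 to 33.2 in P14 TIL and 2.19 to 3.48 in P14 Sp), so none was counted as a copy.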

Additional observations from a re-analysis of the deposited data

How the results depend on the processing

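No gene of the 34 changed direction past the threshold under any alternative. The number called higher was 31 with the main design and 30 to 33 under other scalings, filters, DESeq2, limma-voom, Hspa1a and Hspa1b summed or pseudogene rows left out. Leaving out 1 library gave 28 (without P14 Sp library 2) to 33 (without P14 TIL library 1). Against a null of 1.5-fold, 23 were higher, without Hspa14, Bag3, Dnaja1, Dnaja2, Dnajb1, Ahsa1, Ptges3 and Hsf1, and over all genes 2953 were higher and 3464 lower. With a replicate block 31 of the 34 were higher, as were 6747 genes of all tested, with 7025 lower. Deviations from the tissue means of equal-numbered libraries correlated at -0.00079, 0.0157 and 0.00242, too low to treat the numbers as pairs, which does not show that they came from different mice. Per kilobase, the difference in the Cct7 share was 2.15 percentage points in place of 3.41. That in the share of Hspa1a and Hspa1b was 31.4 in place of 23.8. By counts, and with Hspa1a counted as 1 copy, the latter difference was 13.8 percentage points. Without pseudogene rows, Dnajb6 (log2 0.21, adjusted p = 0.023) and Chordc1 (log2 0.30, adjusted p = 0.037) were also called, and 5482 genes were higher and 5580 lower. Depth limits Bag3, Hsf2, Dnajb4 and Hspb1, which had under 10 CPM in every library. No alternative tested TPM values. TPM scales each library by its own total per length, so the ratio of P14 TIL to P14 Sp was smaller for all 34 genes, Hsf1 and Dnaja2 included. Dnajb6 (28.3 TPM in P14 TIL and 30.3 TPM in P14 Sp) and Chordc1 (13.2 TPM and 13.3 TPM) were then slightly lower in P14 TIL.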
